A study of Mus musculus with 18 samples.

Results

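Arntl, Clock, Npas2, Nr1d1, Nr1d2 and Rora encode the activators of the circadian clock and the nuclear receptors of the REV-ERB and ROR families that act on Arntl. They were selected by gene symbol in the count tables, where they made up 6 of 32285 genes. The genes were followed in single cells of dorsal dermis from 18 adult, wild-type, male C57BL/6J mice whose skin was in telogen, the resting phase of the hair cycle. All mice were kept in 12 h of light and 12 h of dark and carried no named transgene or treatment, so the groups differed in their labels only by zeitgeber time (ZT, hours since lights on). There were 3 mice at each of ZT2, ZT6, ZT10, ZT14, ZT18 and ZT22, 1 from each of 3 successive days, and each mouse gave 1 library of sorted live cells after fat and vessels had been scraped off the skin. No cells were cultured or pooled across mice.

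The mammalian clock is a delayed feedback loop of transcription. BMAL1, the product of Arntl, pairs with CLOCK or with its close relative NPAS2 and activates genes that carry E-boxes, among them the Per and Cry genes, whose products inhibit the pair, and Nr1d1 and Nr1d2. REV-ERBα and REV-ERBβ, the products of Nr1d1 and Nr1d2, bind haem and repress Arntl, Clock and Npas2 through ROR response elements with the help of the NCOR1 and HDAC3 corepressors, whereas RORα, the product of Rora, activates through the same elements. RORα is also known as a factor needed for the development of group 2 innate lymphoid cells, which live in skin.

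Promoter sequences with letters that match elements of the clock loop are shown first, from the RefSeq promoter table of GRCm38.p6. It held 9 promoters for the 6 genes, each running from 250 bases before to 50 bases after a transcription start. Capitals mark the ROR element letters searched, with any base at the position where the pair shown differ and on either strand, in the promoter of the second Arntl start site on the plus strand of chromosome 7. The first site, chr7:113207492-113207521, spans the start, and the other, chr7:113207528-113207557, lies just after it.
Arntl, first ROR element: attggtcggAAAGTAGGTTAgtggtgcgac
Arntl, second ROR element: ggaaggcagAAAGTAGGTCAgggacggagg
These letters occurred in 20 of 32817 promoters of the same length (0.0609%), and among the 6 genes they were found in Arntl alone. The letters searched were those of the Arntl pair itself, so the match in Arntl was set by the choice of letters. Other forms of the ROR element were not searched. The lack of a match in the remaining genes therefore does not show that these genes lack ROR elements. The second element overlaps the AGGTCA half-site of nuclear receptors, and AGGTCA or TGACCT was present in 16.3% of all promoters.

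The 250 bases before the starts of the 2 REV-ERB genes are shown because these genes are both targets of the activators and receptors that act back on them. Capitals mark AACGTG, an E-box variant, 28 bases before the Nr1d1 start (chr11:98775378-98775627, minus strand), and the half-site AGGTCA 77 bases before the Nr1d2 start (chr14:18239107-18239356, minus strand).
Nr1d1: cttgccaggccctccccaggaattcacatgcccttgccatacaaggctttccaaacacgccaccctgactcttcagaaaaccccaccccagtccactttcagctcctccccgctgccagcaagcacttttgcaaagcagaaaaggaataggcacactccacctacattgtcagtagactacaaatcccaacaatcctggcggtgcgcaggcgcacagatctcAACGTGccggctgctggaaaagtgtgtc
Nr1d2: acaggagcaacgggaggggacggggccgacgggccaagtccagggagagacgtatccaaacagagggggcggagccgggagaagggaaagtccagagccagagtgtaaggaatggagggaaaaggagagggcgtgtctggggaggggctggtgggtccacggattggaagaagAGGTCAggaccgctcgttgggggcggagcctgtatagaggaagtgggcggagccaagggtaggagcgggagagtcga
The marked letters were found by search, and their binding was not tested. AACGTG or CACGTT was present in 4.69% of all promoters. The canonical E-box CACGTG, in 7.15% of promoters, and the D-box (TTACATAA, TTACGTAA or TTATGTAA), in 1.05%, had no match in these windows of the 6 genes, which says only that these letters are not within these bases. TGACCT also stood 119 bases before the third start site of Clock.

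In the GENCODE annotation of GRCm38, Arntl (ENSMUSG00000055116) lies at chr7:113207465-113314126 on the plus strand and Clock (ENSMUSG00000029238) at chr5:76209868-76304792 on the minus strand. Npas2 (ENSMUSG00000026077) lies at chr1:39193731-39363236 on the plus strand and Rora (ENSMUSG00000032238) at chr9:68653786-69388246 on the plus strand. Nr1d1 (ENSMUSG00000020889), at chr11:98767932-98775333 on the minus strand, shares 263 exonic bases at its end with Thra, the thyroid hormone receptor alpha gene on the opposite strand. Nr1d2 (ENSMUSG00000021775) lies at chr14:18204054-18239127 on the minus strand, and no other annotated gene overlaps it. Whether the authors' counting used strand is not given in the sources used here, so reads in the shared Nr1d1 and Thra bases cannot be assigned with certainty.

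The tables held 23990 barcodes, of which 16877 passed the study's limits on genes and mitochondrial reads, and each library kept 177 to 1998 cells with 3777201 to 40094033 unique molecular identifiers (UMIs). Clusters were named from marker genes, with the clock genes left out of the clustering. The fibroblast-like cells numbered 12132 (71.9%, 107 to 1543 per library), and all 6 fibroblast markers were detected in each of their 9 clusters. There were 1549 macrophage-like cells (9.18%), 733 muscle-like cells (4.34%) and 274 lymphocyte-like cells (1.62%), in which all 8 macrophage markers, all 6 muscle markers, and all 7 T cell and all 7 NK cell markers were detected. At least 20 cells were found in 18, 17, 12 and 5 libraries for these types in the same order. Another 1885 cells (11.2%) in 6 clusters were left unnamed. They included 317 cells of low depth with all 8 macrophage markers detected. A further 690 unnamed cells had 7 of the 8, beside markers of another class. The day 2 library of ZT6 shared 89 barcodes with the day 3 library of ZT10, against at most 4 in any other pair. In the ZT6 library these 89 barcodes carried 501 to 1100 UMIs and none passed the limits, and in the ZT10 library all 89 passed with 19511 to 62031 UMIs, so results are also given without both libraries. Levels below are counts per 10000 UMIs in the summed cells of a library, and with 1 mouse a library they carry both animal and counting error.

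Arntl rose and fell most clearly of the activators, with its high point around lights on. In fibroblast-like cells its level at ZT22 was 0.317, 0.318 and 0.343 on days 1, 2 and 3, and at ZT2 it was 0.345, 0.2465 and 0.283. It had dropped to 0.0506, 0.0517 and 0.0302 at ZT6 and to 0.0242, 0.0128 and 0.00659 at ZT10. The level was 0.0467, 0.0224 and 0.0421 at ZT14 and 0.131, 0.216 and 0.193 at ZT18. Every library of ZT22 and ZT2 lay above every library of the other 4 times, and the mean at ZT22 (0.326 ± 0.0146, SD, n = 3) was 22.4 times the mean at ZT10 (0.0145 ± 0.00893, SD, n = 3). These values rest on 4315 UMIs in 18 libraries.

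Clock, the partner of BMAL1, moved in the same part of the day over a much smaller range. Its level was 0.804, 0.653 and 0.680 at ZT2, 0.490, 0.495 and 0.428 at ZT6, and 0.337, 0.391 and 0.391 at ZT10. It then climbed to 0.475, 0.520 and 0.543 at ZT14, 0.6105, 0.643 and 0.645 at ZT18, and 0.727, 0.809 and 0.790 at ZT22. All 3 libraries of ZT10 lay below every other library, those of ZT22 and ZT2 overlapped each other, and the highest mean, at ZT22, was 2.08 times the lowest, at ZT10.

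Npas2, the relative of Clock, was found at 1020 UMIs in all and followed Arntl. Its level was 0.103, 0.0847 and 0.0634 at ZT2 and 0.0749, 0.0725 and 0.0962 at ZT22. Between these it stood at 0.0182, 0.0123 and 0.0132 at ZT6, 0.00432, 0.00903 and 0.0132 at ZT10, 0.0156, 0.00959 and 0.00365 at ZT14, and 0.0173, 0.0174 and 0.0256 at ZT18. The 6 libraries of ZT22 and ZT2 were all above the other 12, those of ZT10 and ZT14 overlapped at the bottom, and the mean at ZT2 was 9.46 times that at ZT10.

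Nr1d1 showed the widest swing of the 6 genes, in the later light phase. Its level was 0.311, 0.464 and 0.332 at ZT2, 1.23, 1.28 and 1.685 at ZT6, and 1.45, 1.18 and 1.27 at ZT10. It was 0.588, 0.508 and 0.240 at ZT14, 0.0207, 0.0162 and 0.0351 at ZT18, and 0.00881, 0.0215 and 0.0662 at ZT22. The libraries of ZT6 and ZT10 overlapped each other and stood above all others, those of ZT18 and ZT22 overlapped below all others, and the mean at ZT6 (1.40 ± 0.248, SD, n = 3) was 58.3 times that at ZT18 (0.0240 ± 0.00985, SD, n = 3).

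Nr1d2 followed Nr1d1 with a later fall. Its level was 0.351, 0.474 and 0.376 at ZT2, 1.02, 1.11 and 1.265 at ZT6, and 1.315, 1.33 and 1.38 at ZT10. At ZT14 it was still 0.945, 1.05 and 0.793, before 0.359, 0.216 and 0.301 at ZT18 and 0.0701, 0.1245 and 0.1335 at ZT22. All 3 libraries of ZT10 were above the rest and all 3 of ZT22 below, and the 2 means differed 12.3-fold.

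Rora, in contrast to the repressors, kept a nearly level course. It was 1.62, 1.41 and 1.42 at ZT2, 1.61, 1.89 and 1.50 at ZT6, and 1.94, 1.91 and 1.71 at ZT10. It was 1.36, 1.60 and 1.41 at ZT14, 1.71, 1.49 and 1.39 at ZT18, and 1.35, 1.53 and 1.38 at ZT22. The libraries of ZT10 lay above those of ZT22 (1.31 times in the means) but overlapped those of ZT6. The libraries of the highest and lowest time did not overlap for any of the 6 genes, as for 62.6% of the genes tested in fibroblast-like cells, so this count reads nothing particular to the 6.

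**Figure D1:**
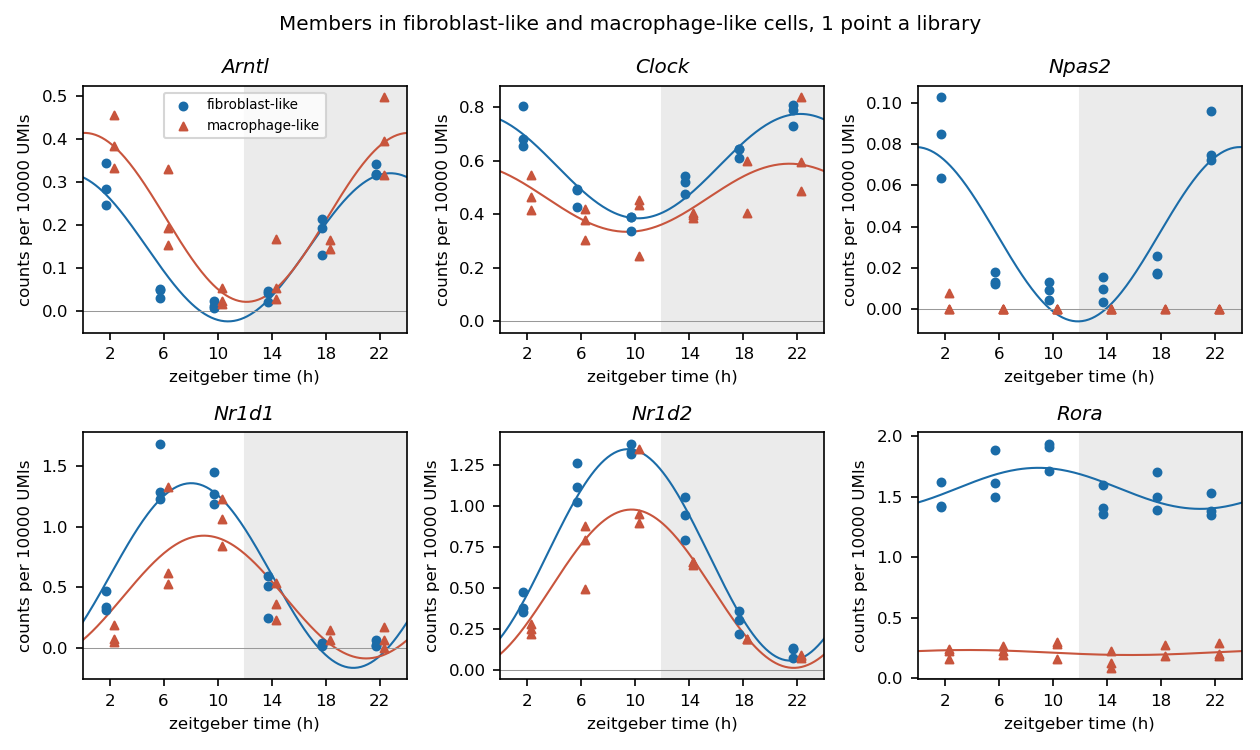
Level of each gene (counts per 10000 UMIs, vertical axis) by zeitgeber time (h, horizontal axis), 1 point per library, with grey for the dark phase. Circles are fibroblast-like cells and triangles macrophage-like cells. Lines are the fitted 24 h cosine, with none for Npas2 in macrophage-like cells. Arntl, Clock and Npas2 are high at ZT22 and ZT2 in fibroblast-like cells, Nr1d1 and Nr1d2 at ZT6 and ZT10, and Rora stays between 1.35 and 1.94 there and between 0.0840 and 0.302 in macrophage-like cells.

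A cosine with a 24 h period, fitted to all genes with edgeR's quasi-likelihood test and Benjamini-Hochberg adjustment, called 5 of the 6 genes rhythmic in fibroblast-like cells, where 14% of 12354 genes tested were called. The log2 amplitude was 2.27 for Arntl (adjusted p = 2.79e-08), 1.98 for Npas2 (3.64e-07) and 0.49 for Clock (7.07e-07). Among the receptors it was 3.03 for Nr1d1 (3.99e-07), 1.74 for Nr1d2 (9.10e-08) and 0.18 for Rora (0.0555). The median over the 6 was 1.86, against 0.127 over all genes tested. Rora thus did not pass the threshold of 0.05. With the day as a replicate block its edgeR adjusted p was 0.0481, with time as a factor 0.0484, with DESeq2 0.0222, and with 1 library left out it lay between 0.0267 and 0.134, passing without ZT6 day 3, ZT14 day 1 or ZT18 day 1. Without both libraries that share barcodes the adjusted p of Rora was 0.164 and those of the other 5 were 5.77e-07 (Arntl), 1.54e-05 (Clock), 1.91e-06 (Npas2), 4.90e-06 (Nr1d1) and 1.91e-06 (Nr1d2).

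The cosine on the level scale gave the order of the peaks, with SE from leaving out each library. Clock peaked at ZT 22.2 ± 0.384 h, Arntl at 22.8 ± 0.372 h and Npas2 at 23.9 ± 0.630 h. Nr1d1 peaked at 8.04 ± 0.398 h and Nr1d2 at 9.47 ± 0.209 h. The peak of Rora lay at 8.93 ± 1.29 h. Differences between the peaks of different genes were not tested. The relative amplitude, the amplitude over the mean level, was 1.16 ± 0.110 for Arntl, 1.16 ± 0.168 for Npas2 and 0.336 ± 0.0258 for Clock. It was 1.28 ± 0.108 for Nr1d1, 0.921 ± 0.0397 for Nr1d2 and 0.108 ± 0.0348 for Rora. On log2 of the level plus 0.05 the relative amplitude of Arntl was 0.751 and that of Npas2 0.433. The 0.05 added is above the mean Npas2 level of 0.0363 and so narrows its range. A value above 1 means that the fitted curve goes below 0 at its trough, as for Arntl, Npas2 and Nr1d1. On each of the 3 days taken alone Nr1d1 peaked before Nr1d2, at 8.65 and 9.88 h on day 1, 7.98 and 9.46 h on day 2, and 7.52 and 9.09 h on day 3. Arntl peaked at 23.4, 22.4 and 22.5 h on these days. With all kept cells of each library summed (16877 over all libraries), the same 5 genes passed the test and 5.44% of genes were called, with adjusted p = 3.04e-07 for Nr1d1, 1.49e-06 for Nr1d2, 3.52e-06 for Arntl and Npas2, 1.16e-05 for Clock and 0.267 for Rora (edgeR).

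Within the fibroblast-like cells 9 clusters were compared, each called by its 2 leading genes and not by a cell type name, since 1 of them, Dmkn/Krtdap, led with genes of another class. Their share of the fibroblast-like cells changed with time, for instance from 4.08% at ZT22 to 16.8% at ZT14 for Dmkn/Krtdap, so the summed fibroblast-like level mixes them in changing parts. The test was therefore repeated within the 5 clusters that had at least 20 cells in at least 2 libraries of every time. In Crispld1/Pi15 cells 5 of 6 members passed (8.32% of all genes), with adjusted p = 3.62e-11 for Nr1d1, 6.09e-10 for Nr1d2, 2.26e-09 for Arntl, 4.13e-06 for Npas2 and 1.22e-05 for Clock in edgeR. In Igfbp3/Sult1e1 cells 4 of 5 tested members passed (6.43%), in Ifit1/Isg15 cells 4 of 5 (2.54%), in Ptgs2/Cxcl10 cells 4 of 6 (2.32%) and in Edn1/Hspa1a cells all 6 (7.6%). Nr1d1, Nr1d2 and Arntl were among those that passed in all 5.

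Npas2 passed in the 3 of these clusters where it could be tested, and Clock and Rora passed in some and not in others. Clock passed in 4 of these 5 clusters and had an adjusted p of 0.1105 in Ptgs2/Cxcl10 cells (edgeR), or 0.0135 without the filter on low counts, with a relative amplitude of 0.206 ± 0.0580. Rora passed only in Edn1/Hspa1a cells, a cluster led by heat shock genes, with an adjusted p of 0.0378 (edgeR) and a relative amplitude of 0.105 ± 0.0194. This call was lost when any of 8 of the 16 libraries was left out (adjusted p from 0.0238 to 0.0940), namely ZT2 day 2, all of ZT10, ZT14 day 2 and all of ZT22, with time as a factor (0.165), without the filter on low counts (0.0953) and without both libraries that share barcodes (0.0779). In Igfbp3/Sult1e1 cells Rora had 0.0593, or 0.0409 with the replicate block, 0.0192 with DESeq2, 0.0396 without the barcode-sharing pair, and 0.0373 to 0.169 with 1 library left out, passing without ZT2 day 1 or ZT6 day 2.

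The other 4 clusters were tested with at least 10 cells a library. Nr1d1 and Nr1d2 passed in each, with edgeR adjusted p = 6.56e-10 and 1.38e-06 in Apoe/Steap4 cells and 1.32e-06 and 2.72e-05 in Cilp/Mgp cells. Members called were 2 of 4 in both of these (0.993% and 1.56% of all genes), 4 of 5 in Cthrc1/Tnmd cells (1.6%) and 4 of 5 in Dmkn/Krtdap cells (3.52%), where Arntl and Clock passed as well. In Cilp/Mgp cells 4 of 6 tested members were called with the replicate block, and 4 of 6 with time as a factor (61 of 8509 genes over all). The added calls there were of members that had not passed the filter on low counts in the main fit. The count was also 4 in Cilp/Mgp cells without ZT10 day 3 and in Apoe/Steap4 cells without ZT6 day 2, where the members tested can differ as well. Without the filter on low counts 5 of 6 members were called in both, but more genes were called over all as well. In Apoe/Steap4 cells these were 416 of 16459 genes without the filter and 66 of 6647 with it. In Cilp/Mgp cells they were 711 of 16687 and 116 of 7453. Clock, with an adjusted p of 0.1075 in Apoe/Steap4 and 0.111 in Cilp/Mgp cells, had 0.00897 and 0.0430 without the filter, and 0.0392 with DESeq2 in Apoe/Steap4 cells.

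A test of the difference in rhythm among the 5 larger clusters, with the library as a block, called none of the 6 members and 0.0774% of 10334 genes in edgeR. Before adjustment Nr1d1 (0.000738, adjusted p = 0.318) and Rora (0.0233, adjusted p = 1.00) were under 0.05, and limma voom also called 0. Without the filter on low counts Nr1d1 had 2.64e-05. Peak times nevertheless ranged from 7.03 ± 0.454 h in Cilp/Mgp to 9.05 ± 0.465 h in Apoe/Steap4 cells for Nr1d1 and from 8.20 ± 0.418 h to 10.5 ± 0.308 h in the same clusters for Nr1d2. These 2 clusters were too small to enter the test, so their difference was not tested. For Arntl the range was from 21.6 ± 0.740 h (Cilp/Mgp) to 23.4 ± 0.808 h (Apoe/Steap4).

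**Figure D2:**
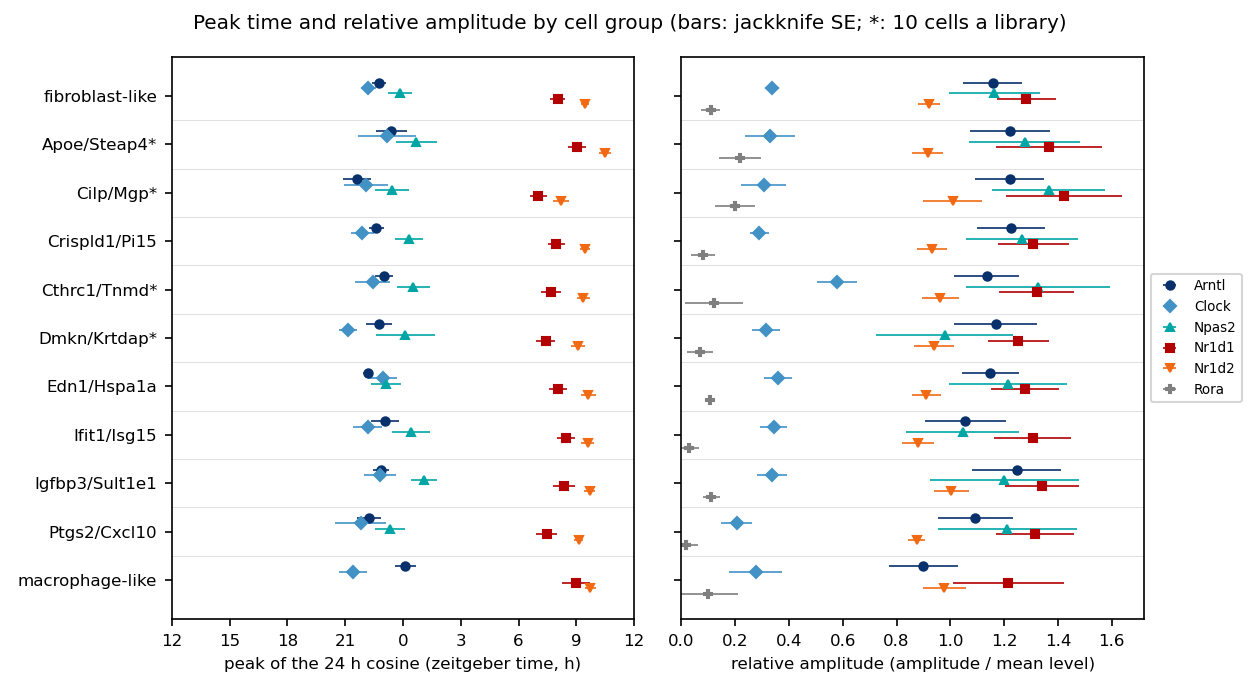
Peak time (h, horizontal axis) and relative amplitude (amplitude over mean level, no unit) by cell group, with bars for the jackknife SE. The groups are fibroblast-like cells, fibroblast clusters and macrophage-like cells. Peak time is not drawn for Rora, and Npas2 is not drawn in macrophage-like cells. An asterisk marks groups fitted on libraries with at least 10 cells. Nr1d1 and Nr1d2 peak between 7.03 and 10.5 h in all fibroblast clusters and in macrophage-like cells, and Rora has the smallest relative amplitudes in fibroblast-like cells.

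Levels between neighbouring clusters in the order of mean level were compared within libraries, and none of these 48 comparisons passed after adjustment over all 84 level comparisons. The order came from the same levels, so the pairs compared were those that differed least. Clusters further apart in the order were not tested, so the missing calls do not show equal levels among clusters. The comparisons closest to passing were those of Arntl and Rora in Cthrc1/Tnmd cells, a cluster led by the tendon gene Tnmd and the matrix gene Cthrc1. Arntl was higher there than in Dmkn/Krtdap cells in 8 of 8 libraries (mean 0.463 ± 0.3565 against 0.2075 ± 0.163, SD), with an exact two-sided sign-flip permutation p of 0.00781, the smallest that 8 libraries allow, and an adjusted p of 0.0549. Rora was higher there than in Cilp/Mgp cells in 8 of 10 libraries (2.46 ± 0.566 against 1.91 ± 0.3655, SD; permutation, adjusted p = 0.0549). The cosine mean of Rora was 2.55 in Cthrc1/Tnmd cells, 1.94 in Cilp/Mgp cells and between 1.29 and 1.58 in the other 7 clusters. The Cthrc1/Tnmd share of fibroblast-like cells was 10.5% at ZT6 and 9.66% at ZT10, the times of the highest Rora means, and 3.38% to 7.35% at the other 4 times, and its part in the course of Rora over all fibroblast-like cells was not tested.

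In macrophage-like cells, the phagocytes of the dermis, Nr1d1 and Nr1d2 were high at ZT6 and ZT10 and Arntl at ZT22 and ZT2, at 363512 to 3051908 UMIs per library. Nr1d2 was 0.217, 0.278 and 0.250 at ZT2, 0.790, 0.495 and 0.879 at ZT6, 0.951, 0.899 and 1.35 at ZT10, and 0.639, 0.656 and 0.657 at ZT14. It fell to 0.185 and 0.188 on days 2 and 3 of ZT18, where day 1 had under 20 cells, and to 0.0721, 0.0908 and 0.0837 at ZT22. The 3 libraries of ZT22 lay below all others and those of ZT10 above all others.

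Nr1d1 in the same cells was 0.186, 0.0456 and 0.0701 at ZT2, 0.620, 0.523 and 1.32 at ZT6, 1.23, 1.06 and 0.841 at ZT10, and 0.224, 0.533 and 0.360 at ZT14. At ZT18 it was 0.0618 and 0.144, and at ZT22 0.167, 0.0661 and 0. The libraries of ZT10 lay above all others except ZT6 day 3, and those of ZT2, ZT18 and ZT22 lay below every library of ZT6, ZT10 and ZT14.

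Arntl had 0.457, 0.333 and 0.385 at ZT2, 0.155, 0.330 and 0.194 at ZT6, 0.0537, 0.0241 and 0.0175 at ZT10, and 0.168, 0.0288 and 0.0540 at ZT14. At ZT18 it was 0.165 and 0.144, and at ZT22 0.498, 0.396 and 0.318. As in fibroblast-like cells, its libraries of ZT10 were low and those of ZT22 and ZT2 high, though ZT6 day 2 reached the low end of the latter. Clock ranged from 0.245 (ZT10 day 3) through a median of 0.418 to 0.837 (ZT22 day 3), and Rora from 0.0840 through 0.220 to 0.302. Npas2 was found with 1 UMI in the 17 libraries.

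In macrophage-like cells 3 of the 5 members tested were called, where 0.601% of 8651 genes were called. The edgeR adjusted p was 5.73e-09 for Nr1d2 (log2 amplitude 1.77), 0.000146 for Arntl (1.48), 0.000242 for Nr1d1 (2.05), 0.232 for Clock (0.31) and 0.806 for Rora (0.20). Leaving out any 1 library left the count at 3. In simulated macrophage-like counts 11.5% of rhythms with a log2 amplitude of 0.3 were recovered, against 58.3% in fibroblast-like counts. The missing calls of Clock and Rora therefore say little about whether they cycle in macrophage-like cells. The highest and lowest times did not overlap for 4 of the 5 genes tested, all but Rora, as for 58% of genes. In relative terms the swing was 0.899 ± 0.128 for Arntl with a peak at ZT 0.134 ± 0.538 h, 1.22 ± 0.205 for Nr1d1 at 8.98 ± 0.720 h, and 0.977 ± 0.0805 for Nr1d2 at 9.72 ± 0.292 h. Without both barcode-sharing libraries the adjusted p was 0.000321 for Arntl, 0.00113 for Nr1d1 and 7.00e-08 for Nr1d2. When the fibroblast-like counts were thinned to the macrophage-like totals, Arntl, Clock, Nr1d1 and Nr1d2 still passed there, with 0.000288 for Clock, and Npas2 was no longer tested.

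The difference in rhythm between fibroblast-like and macrophage-like cells passed for none of the 5 members tested in edgeR, where 0.633% of 11053 genes passed, and limma voom called 0. Arntl came closest (adjusted p = 0.114, 0.00159 before adjustment) and alone was under 0.05 before adjustment in edgeR, where limma voom had Arntl at 0.0403 and Clock at 0.0436, and Nr1d1 had an adjusted p of 0.526, Clock 0.6275, Rora 0.727 and Nr1d2 0.836. Without the filter on low counts Arntl had 0.000740 and Nr1d1 7.64e-05. Clock therefore passed in one type and not in the other without a difference shown between them.

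Muscle-like cells were few and shallow, with a median of 6598 UMIs per cell against 22188 in fibroblast-like cells. In the 12 libraries with at least 20 cells, Nr1d1 was 0.358 at ZT2 (day 1), 0.277 and 0.474 at ZT6 (days 2 and 3), 0.488 and 0.110 at ZT10 (days 2 and 3), and 0.504 and 0.155 at ZT14 (days 1 and 2). It was 0.152, 0.155 and 0.126 at ZT18 and 0.278 and 0.143 at ZT22 (days 2 and 3). The low values at ZT18 were above those of fibroblast-like cells at the same time, and the values at ZT6 and ZT10 below those of fibroblast-like cells. The libraries of ZT6 lay above those of ZT18, and those of ZT10, ZT14 and ZT22 spread across both. Nr1d2 was 0.239 at ZT2, 0.377 and 0.500 at ZT6, 0.594 and 0.202 at ZT10, and 0.266 and 0.378 at ZT14 in the same libraries. It was 0.396, 0.517 and 0.399 at ZT18 and 0.238 and 0.513 at ZT22, with no time apart from the others.

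In these 12 libraries the difference in rhythm between fibroblast-like and muscle-like cells passed for 2 of 5 members tested, Nr1d1 and Nr1d2 (edgeR, adjusted p = 0.0347 each), where 0.0212% of 9438 genes passed. Arntl had 0.689, Rora 0.781 and Clock 0.955. Genes could enter this test through their counts in fibroblast-like cells alone. In muscle-like cells alone, with at least 10 cells a library, 2726 genes passed the filter on low counts. Arntl and Clock, with 46 and 49 UMIs in 17 libraries, were not among them. Their missing calls therefore say little about their rhythm in muscle-like cells. The calls were fragile. With 1 library left out the adjusted p of Nr1d1 ran from 0.00140 to 0.141 and that of Nr1d2 from 0.00140 to 0.243, and each was lost in 7 of the 12 cases. Both were lost without ZT6 day 2, ZT6 day 3, ZT10 day 3, ZT14 day 1, ZT22 day 2 or ZT22 day 3, and in addition Nr1d1 was lost without ZT2 day 1 and Nr1d2 without ZT14 day 2. Without both libraries that share barcodes both had 0.391. In edgeR after removing the highest Scrublet scores, Nr1d1 had 9.83e-14 and Nr1d2 4.60e-11 (108 of 9418 genes called). Without the filter on low counts they had 1.39e-13 and 9.68e-09 (305 of 21478). The adjusted p thus swung widely between fits, and the reason was not tested. In limma voom Nr1d1 had 0.0740 and Nr1d2 0.0480, and with at least 10 cells a library, in 17 libraries, they had 0.00177 and 0.00898.

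Alone, the muscle-like cells of these 17 libraries gave no call for the 3 members tested, with 0.257% of 2726 genes called. Nr1d1 had a log2 amplitude of 0.64 (edgeR, adjusted p = 0.633), Nr1d2 of 0.17 (0.986) and Rora of 0.08 (0.990), none was under an unadjusted 0.05, and DESeq2 called 0. The relative amplitude was 0.498 ± 0.192 for Nr1d1 and 0.188 ± 0.184 for Nr1d2. The mean level of Nr1d1 was highest at ZT6 (0.457) and lowest at ZT18 (0.1445), and that of Nr1d2 highest at ZT6 (0.541) and lowest at ZT2 (0.119). Dbp, a clock output gene driven through E-boxes, passed in the same cells (adjusted p = 1.06e-05), with a relative amplitude of 0.906 and a peak at 8.57 h. Fibroblast markers, which these cells should lack, stood in the muscle-like sums at a median of 0.227% of the fibroblast-like level (0.0625% to 10.6%) in the 12 libraries with at least 20 cells. In these Nr1d1 stood at a median of 100.4% (8.66% to 1295%) and Nr1d2 at 56.3% (14.6% to 384%). Mean levels in muscle-like and fibroblast-like cells of these libraries were 0.268 and 0.582 for Nr1d1 and 0.385 and 0.714 for Nr1d2.

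**Figure D3:**
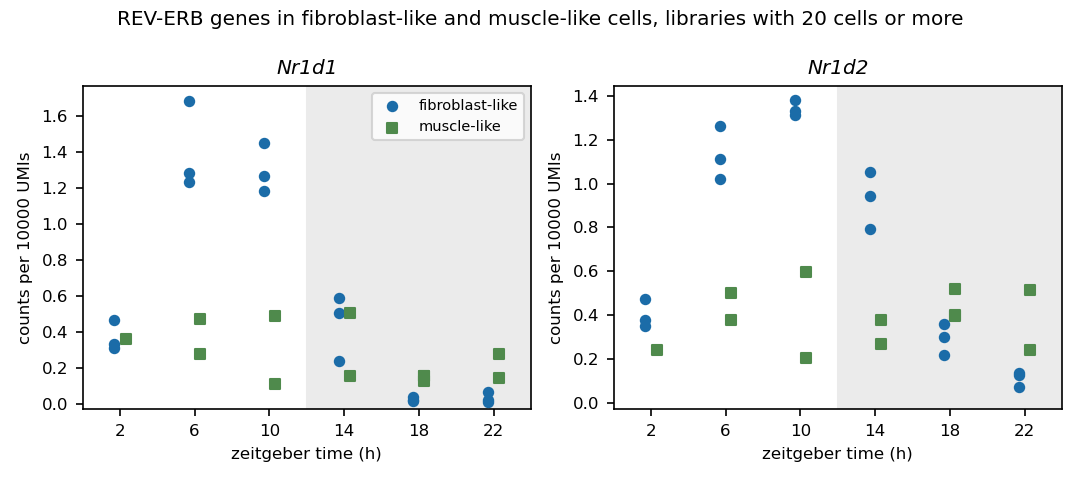
Level of Nr1d1 and Nr1d2 (counts per 10000 UMIs, vertical axis) by zeitgeber time (h, horizontal axis; grey marks the dark phase) in fibroblast-like and muscle-like cells, 1 point per library with at least 20 cells. Muscle-like values stay between 0.110 and 0.504 for Nr1d1 and between 0.202 and 0.594 for Nr1d2, while fibroblast-like values range from 0.00881 to 1.685 and from 0.0701 to 1.38.

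Rora differed widely between cell types. In lymphocyte-like cells, which held T and NK cell markers, its level was 3.94 (ZT2 day 1), 6.17 (ZT2 day 3), 4.82 (ZT10 day 2), 1.85 (ZT14 day 3) and 2.625 (ZT22 day 2). In each of these 5 libraries it was above that of fibroblast-like cells (1.41 to 1.91), an exact two-sided permutation p of 0.0625, which is the smallest that 5 libraries allow, and 0.21 after adjustment. These cells carried 213211 to 333863 UMIs a library and did not cover all 6 times, so their rhythm could not be tested. Fibroblast markers stood in them at a median of 0.546% of the fibroblast-like level (0.283% to 15.5%) and Rora at 243% (131% to 434%).

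In macrophage-like cells Rora was lower than in fibroblast-like cells in 17 of 17 libraries, with medians of 0.220 and 1.50 and a mean difference of 1.35 ± 0.191 (SD; sign-flip permutation test, adjusted p = 0.00042 over 84 comparisons, at the smallest p of 1e-05 that 100000 draws can give). In muscle-like cells, with a median of 0.590, it was lower than in fibroblast-like cells in 12 of 12 libraries (adjusted p = 0.00689) and higher than in macrophage-like cells in 11 of 11 (0.01155). The order of Rora was thus lymphocyte-like, fibroblast-like, muscle-like and macrophage-like cells. The first step rested on 5 libraries, in which no exact permutation p could fall under 0.0625, so it could not pass.

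Clock was higher in fibroblast-like than in macrophage-like cells in 14 of 17 libraries (means 0.578 and 0.457; permutation, adjusted p = 0.01155) and higher than in muscle-like cells in 12 of 12 (means 0.583 and 0.0825; 0.00689). Macrophage-like cells exceeded muscle-like cells in 11 of 11 libraries (0.01155), which completes the order of Clock. Its lymphocyte-like level (median 0.270 in 5 libraries) could be compared in 5 libraries with the fibroblast-like and macrophage-like levels and in 3 with the muscle-like level, where the smallest exact permutation p is 0.0625 and 0.25, so no such difference could pass.

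Arntl, alone among the 6, had a higher mean in macrophage-like than in fibroblast-like cells, and was higher in 14 of 17 libraries (means 0.219 and 0.150; permutation, adjusted p = 0.0329). The call was lost with TMM scaling over all types (0.110) and when any of 9 libraries was left out, those of ZT2 and ZT6, ZT14 day 1, or ZT22 day 1 or 2. Macrophage-like cells also exceeded muscle-like cells in Arntl in 10 of 11 libraries (0.204 and 0.0581; 0.0329, or 0.189 with TMM scaling), a call lost when any of 8 libraries was left out (ZT2 day 1, ZT6 day 2 or 3, ZT10 day 2, ZT14 day 1 or 2, and ZT22 day 2 or 3). Between lymphocyte-like and fibroblast-like cells the means of Arntl were 0.249 and 0.200 in 5 libraries, too few for any exact permutation p under 0.0625.

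Nr1d2 was higher in fibroblast-like than in macrophage-like cells in 16 of 17 libraries (means 0.721 and 0.5105; permutation, adjusted p = 0.00112). Nr1d1 was higher in 11 of 17 (0.629 and 0.4385; 0.0601), and passed with TMM scaling (0.0309), with finer clusters (0.0291) and when any of 4 libraries was left out (ZT14 day 3, ZT18 day 2 or 3, and ZT22 day 1). Between muscle-like and fibroblast-like cells the adjusted p was 0.273 for Nr1d1, 0.21 for Nr1d2 and Arntl, and 0.101 for Npas2, of which Arntl passed without ZT18 day 1 and Npas2 without ZT18 day 2. Npas2 was above its macrophage-like level in the fibroblast-like cells of 17 of 17 libraries (0.00042), the macrophage-like sum being 0 in 16 of them.

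Fibroblast markers in macrophage-like sums stood at a median of 0.856% (0.396% to 2.00%) of their fibroblast-like level. Of the members, Rora stood at a median of 13.9% (6.19% to 19.7%), Nr1d2 at 67.6% (44.5% to 103%) and Clock at 76.3% (57.8% to 134%). Nr1d1 stood at 78.6% (0% to 1896%), Arntl at 136% (74.7% to 642.5%) and Npas2 at 0% (0% to 7.53%). The medians of all but Npas2 were above the highest share that the markers reached, and that of Npas2 was below it.

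**Figure D4:**
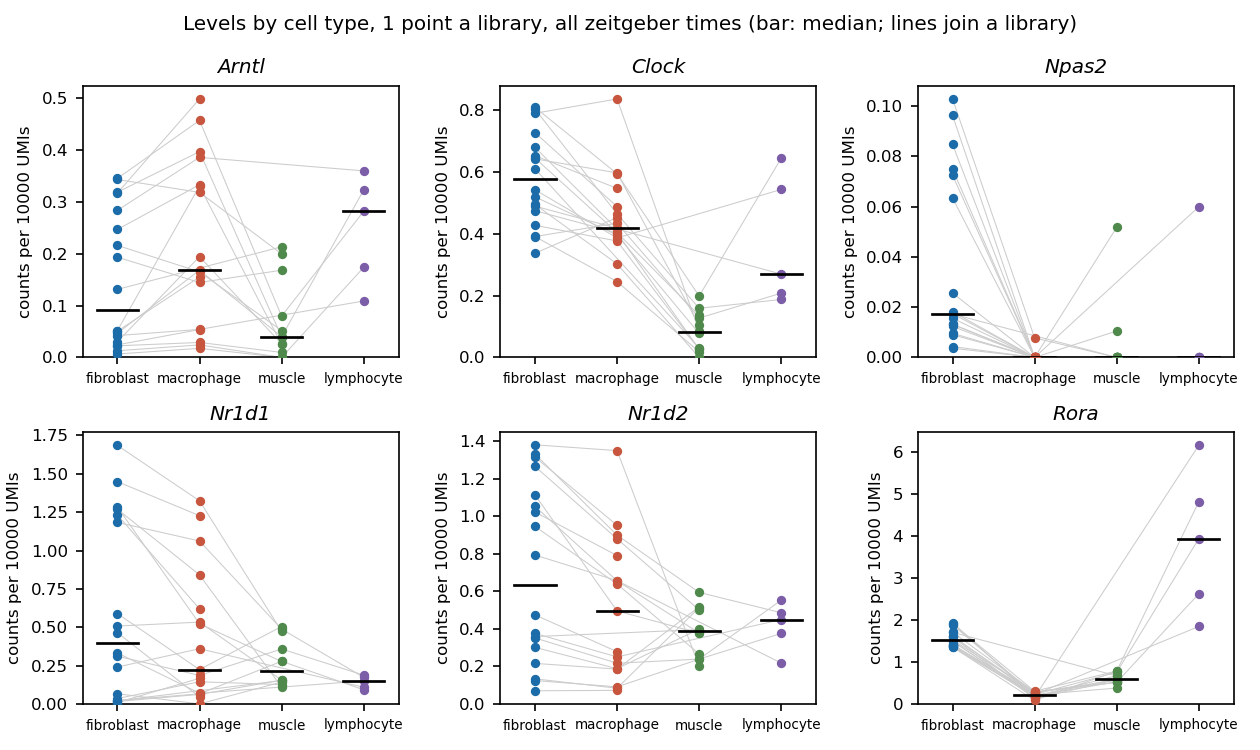
Level of the 6 genes (counts per 10000 UMIs, vertical axis) in fibroblast-like, macrophage-like, muscle-like and lymphocyte-like cells, 1 point per library with at least 20 cells, lines joining the types of a library and a bar at the median. Rora has medians of 3.94 in lymphocyte-like, 1.51 in fibroblast-like, 0.590 in muscle-like and 0.220 in macrophage-like cells.

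The remaining genes of the loop were described by lists. All 12 other core clock genes passed in fibroblast-like cells (14% of all genes called), 9 with peaks between ZT0 and ZT12 and 3 between ZT12 and ZT24, with a median log2 amplitude of 1.60 against 0.127 over all genes. Ciart, a repressor of the activators, had a relative amplitude of 1.46 and peaked at 10.1 h (adjusted p = 2.01e-06). The output factors Dbp and Hlf, which bind D-boxes, peaked at 9.62 h (1.29; 3.42e-08) and 10.7 h (1.075; 5.78e-07). In macrophage-like cells 4 of 10 passed (0.601% of all genes called), Dbp (8.58e-07), Per3 (0.000124), Tef (0.000392) and Per2 (0.00773), with a median log2 amplitude of 0.84 against 0.17.

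The paralogs of the members gave no call in fibroblast-like cells, where 2 could be tested and 14% of all genes were called. They are named here outside the rule for named genes because the list is short. Arntl2 had an adjusted p of 0.908 and Rorb of 0.625, and neither was under an unadjusted 0.05 (edgeR).

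Of the corepressors and coactivators that these receptors use, 3 of 14 tested passed in fibroblast-like cells, where 14% of all genes were called. The 14 had a median log2 amplitude of 0.10 against 0.13 over all genes. Among the 3 called were the acetyltransferase gene Kat2b (adjusted p = 0.000165, peak 4.85 h) and Tbl1xr1, a subunit of a nuclear receptor corepressor complex (0.00939, 10.7 h). In macrophage-like cells, where 0.601% of all genes were called, 0 of 14 passed and 0 were under an unadjusted 0.05 (edgeR). Among the genes of haem synthesis and breakdown, which supply and remove the ligand of the REV-ERB receptors, 2 of 12 passed in fibroblast-like cells (14% of all genes). Their list had a median log2 amplitude of 0.11, and Cpox was among the 2 called (adjusted p = 0.0190, 9.70 h). In macrophage-like cells 0 of 11 passed (0.601% of all genes) and 3 were under an unadjusted 0.05.

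Genes known as targets of REV-ERB repression in macrophages, fibroblasts or liver had 2 calls among 6 tested in fibroblast-like cells, where 14% of all genes were called. Lpl, the lipoprotein lipase gene, peaked at 1.86 h (adjusted p = 0.000363). In macrophage-like cells Mmp9, a matrix metalloproteinase gene, peaked at 2.19 h (0.00607) and Plin2, a lipid droplet coat gene, at 5.09 h (0.0251), again 2 of 6, where 0.601% of all genes were called, with a median log2 amplitude of 0.54 against 0.17 over all genes.

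Across the 18 fibroblast-like libraries of the 6 times, which held 2899049 to 33450951 UMIs, Pearson's r of log2 library-scaled counts was 0.94 between Arntl and Clock, 0.82 between Arntl and Npas2 and 0.90 between Nr1d1 and Nr1d2. Between Arntl and Nr1d2 it was -0.87 and between Arntl and Nr1d1 -0.72. Rora had r of 0.55 with Nr1d2 and -0.54 with Arntl. These are descriptions over libraries that are ordered by 1 cycle, with no test.

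Among 12348 genes the ones most like each member were listed by the same r. Leo1 (0.97), Unc119b (0.94) and Rhoj (0.93) were most like Arntl, and Scp2 (-0.96), Dbp (-0.95) and Bhlhe41 (-0.95) most opposed to it. Clock was most like Arhgap5 (0.96), Unc119b (0.95) and Leo1 (0.95), and Npas2 was most like Gal3st4 (0.90), Rhoj (0.89) and Arhgap18 (0.88). For Nr1d1 they were Syne3 (0.91), Vat1 (0.91) and Rsad1 (0.91), and for Nr1d2 they were Dbp (0.94), Ephx1 (0.93) and Pik3ip1 (0.93). Rora was most like Fnip2 (0.91), Slc7a2 (0.90) and Scarf2 (0.89), none of which passed the cosine test.

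Thra, which overlaps the end of Nr1d1, had 34424 counts in fibroblast-like cells and a log2 amplitude of 0.24 with a peak at 2.56 h (edgeR, adjusted p = 0.00966), against 8.11 h for Nr1d1 in the same test. The antisense genes over Arntl (Gm45355) and Rora (Gm15511), with 33 and 82 shared exonic bases, had 0 and 4 counts.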

How the data were processed

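Single-cell RNA of mouse dermis was sequenced with 10x 3' chemistry. Per the submitters' processing notes and the study's methods, the authors made the deposited UMI counts per gene and cell with Cell Ranger 3.1.0 on mm10. Genes and lists were chosen with earlier results of these data known. Barcodes with 850 to 7800 genes and under 13% mitochondrial counts were kept. Cells were clustered in scanpy 1.11.5 (2000 variable genes, 30 components, 15 neighbours, Leiden resolution 0.8) without 56 genes, the members and the genes of the lists. Clusters were named from fixed markers by a scoring rule that was revised after the clusters, but not the members' values, had been seen. Scrublet called 70 cells (0.415%), too few to have worked, so doublets were left in, and 219 cells with the highest scores were removed as an alternative.

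Counts were summed per library and type. A 24 h cosine, or its difference between types with the library as a block, was tested with edgeR 4.0.16 (TMM, filterByExpr, quasi-likelihood F test, Benjamini-Hochberg) in R 4.3.3 over all genes, with limma 3.58.1 and DESeq2 1.42.0 as alternatives. Types entered with at least 20 cells a library, or 10 where stated. Levels were compared within libraries by two-sided sign-flip permutation tests, exact under 10 libraries and otherwise with 100000 draws, adjusted over 84 comparisons. SE of the cosine came from leaving out libraries. The named genes were the 6 members, from each list the called genes among the 3 with the largest relative amplitude in fibroblast-like cells and those called in another type, and the 3 genes most like each member (for Arntl also the 3 most opposed), and genes that overlap a member; some genes that met this rule are not reported here. Peaks and relative amplitudes of named genes are on the level scale unless edgeR is named.

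The fits were tested on simulated data before use. At the adjusted threshold of 0.05, 8% of the genes called in simulated fibroblast-like counts had no rhythm. In simulated macrophage-like counts this share was 4.4%. In the labels a replicate number marks the day of the series. In fibroblast-like cells the deviations of same-numbered libraries from their time means correlated at a mean r of 0.053, against -0.026 for other pairs, and the closest library had the same number for 11 of 18. In the sum of all cells the mean r was 0.016 against -0.0072, and the closest library had the same number for 8 of 18.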

Additional observations from a re-analysis of the deposited data

Results flagged for a closer look

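The rhythms of Nr1d1 and of Nr1d2 each differed between fibroblast-like and muscle-like cells of the same 12 libraries by the test of the difference itself (edgeR quasi-likelihood, Benjamini-Hochberg adjusted p = 0.0347 for each). Each call was lost in 7 of 12 fits with 1 library left out, both were lost without the libraries that share barcodes (0.391), and that of Nr1d1 was lost in limma voom (0.0740). Both were kept after removing the highest Scrublet scores, without the filter on low counts and with at least 10 cells a library. Nr1d1 had a relative amplitude of 1.28 in fibroblast-like cells and 0.498 in muscle-like cells, and Nr1d2 of 0.921 and 0.188, the muscle-like values being from 17 libraries with at least 10 cells. Muscle-like cells held 193361 to 1031279 UMIs a library and fibroblast-like cells 2899049 to 33450951, and the part of this depth in the difference was not tested.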

How the results depend on the processing

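No result reversed. Of the alternative values for the counts of members called, the count of level calls and the cosine values, 67 were classed as unchanged and 10 as moved. With 1 library left out 361 were classed as unchanged and 8 as moved. A count was classed as unchanged within a fixed fold of its main value, and a cosine value within its SE. Single calls could therefore change within an unchanged count. Among single calls 15 were gained and 8 lost, and with 1 library left out 14 were gained and 39 lost. Without the filter on low counts 1 member was called in muscle-like cells (0 with it), 2 differed in rhythm between fibroblast-like and macrophage-like cells (0) and 1 among the fibroblast clusters (0), in tables with many more genes. The count of members that differed between fibroblast-like and muscle-like cells, 2, was 1 with limma voom, 0 without the pair that shares barcodes (added once the data had been seen, like the limit of 10 cells for this test) and 0 to 2 with 1 library left out. A cosine on log2 of the level plus 0.05 gave relative amplitudes in fibroblast-like cells of 0.751 for Arntl, 0.3085 for Clock, 0.433 for Npas2, 0.9325 for Nr1d1 and 0.7915 for Nr1d2. The 0.05 added narrows the range of low levels, most of all for Npas2, whose mean level of 0.0363 lies below it. The replicate block changed no call of a member tested in both fits other than those of Rora given above. In Cilp/Mgp cells it brought in calls of members that were not tested in the main fit.

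Over all genes the number called moved more. In the sum of all cells it was 754, and 1634 with DESeq2, 499 without the filter, 339 with time as a factor and 483 to 1056 with 1 library left out. In fibroblast-like cells it was 1728, 1120 with time as a factor and 407 after thinning to the macrophage-like totals. In macrophage-like cells it was 52, 166 with DESeq2, 570 without the filter, 34 without the barcode-sharing pair and 29 to 132 with 1 library left out. In muscle-like cells it was 7, 12 with DESeq2, 328 without the filter, 3 with time as a factor and 16 after removing high Scrublet scores. The test of a difference called 70 genes between fibroblast-like and macrophage-like cells (348 without the filter, 34 to 81 with 1 library left out), 2 between fibroblast-like and muscle-like cells (37 with voom, 305 without the filter, 108 after removing high Scrublet scores, 20 with at least 10 cells, 0 to 112 with 1 library left out) and 8 among the clusters (0, 216 and 4 to 12 with voom, without the filter and with 1 library left out). Macrophage-like, muscle-like and lymphocyte-like sums held fewer UMIs than fibroblast-like sums, and lymphocyte-like rhythm could not be fitted.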
